A study of Mus musculus with 7 samples.

Results

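The genes described here are 10 members of Wnt signaling: the 4 TCF/LEF transcription factors *Tcf7*, *Lef1*, *Tcf7l1* and *Tcf7l2*, and 6 genes that Wnt signaling is known to induce, *Axin2*, *Lgr5*, *Nkd1*, *Notum*, *Rnf43* and *Znrf3*. They were taken by name from a table of 38026 genes, and all 10 passed the filter on low values that 21322 genes passed. The set was chosen by the difference of *Tcf7* between the groups of tumors, which was opposite in sign to that of T cell genes, so the values of *Tcf7* are a description without a test. The comparison asks whether the Wnt targets were lower along with it.

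RNA was sequenced from 7 subcutaneous tumors that grew for 2 weeks in young adult C57BL/6 mice. The tumors came from pancreatic ductal adenocarcinoma (PDA) cells of the mouse line 1242, which derives from a pancreatic tumor of an engineered mouse with *Pdx1*-Cre and a mutant *Trp53* allele behind a lox-stop-lox cassette, which both groups carry. The cells had received Cas9 by lentivirus with a scrambled guide RNA in the sgScramble group (replicates 1 to 4) or a guide RNA against *Krt19*, which encodes an epithelial keratin, in the sgKrt19 group (replicates 5, 6 and 8). Polyclonal lines and single-cell clones were both made, with several guides against *Krt19*. The labels do not say whether the sequenced sgKrt19 tumors grew from a polyclonal line or from 1 clone, so the effect of the guide and a difference between lines of cells cannot be told apart.

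Wnt ligands bind Frizzled and LRP receptors and thereby stop the destruction complex from degrading β-catenin, which then joins TCF/LEF factors on DNA and switches on target genes. Many of these targets are inhibitors that limit the pathway, so their RNA is widely used as a readout of Wnt signaling. *Tcf7* and *Lef1* are also T cell transcription factors, with *Tcf7* marking naive, memory and stem-like T cells.

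TCF/LEF factors bind DNA at sites with the core CAAAG, which reads CTTTG on the other strand. The 250 bases before the annotated RefSeq start (GRCm38.p6) are shown for *Axin2*, the target with the largest log2 fold difference, and for *Tcf7l2* and *Lef1*, the factors that did not pass the test. Capitals mark this core on either strand. The windows are chr11:108920099-108920348, chr19:55741560-55741809 and chr3:131110073-131110322, all on the plus strand and written 5′ to 3′.
Axin2: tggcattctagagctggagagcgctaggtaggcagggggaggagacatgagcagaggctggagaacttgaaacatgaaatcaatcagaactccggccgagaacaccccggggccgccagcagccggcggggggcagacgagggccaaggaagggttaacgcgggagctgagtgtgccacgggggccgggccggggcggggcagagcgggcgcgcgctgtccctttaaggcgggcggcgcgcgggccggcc
Tcf7l2: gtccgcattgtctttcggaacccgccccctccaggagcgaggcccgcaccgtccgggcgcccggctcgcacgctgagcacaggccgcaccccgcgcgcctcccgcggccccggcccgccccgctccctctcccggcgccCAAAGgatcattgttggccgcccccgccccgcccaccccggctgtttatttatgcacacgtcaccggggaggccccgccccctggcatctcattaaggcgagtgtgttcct
Lef1: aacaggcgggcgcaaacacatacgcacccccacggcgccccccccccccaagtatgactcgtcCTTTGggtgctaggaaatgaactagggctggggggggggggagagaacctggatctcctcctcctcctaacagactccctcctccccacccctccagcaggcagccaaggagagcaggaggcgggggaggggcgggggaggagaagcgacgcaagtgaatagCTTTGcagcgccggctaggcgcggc
The *Tcf7l2* window held 1 core, which began 111 bases before the RefSeq start, the *Lef1* window 2 cores, 187 and 25 bases before it, and the *Axin2* window none. The windows of *Tcf7l2* and *Lef1* end 10 and 148 bases before the GENCODE starts of these genes given further on, and that of *Axin2* ends at its GENCODE start. Such a core is common, standing in 48.6% of the 32851 windows of this length that were counted. The counted windows did not cover every chromosome. Of the 13 windows that matched 7 of the members, 7 held the core. A match describes letters in a window and not a bound site.

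The 7 libraries held 40781199 to 44972100 reads. Values are given as normalized read counts, that is, the reads of a gene after division by the size factor of its library. A gene's change is the difference in log2(value + 1), sgKrt19 minus sgScramble, and it was called at an adjusted p under 0.05 in limma's test over all 21322 genes. The edited gene *Krt19* was lower in the sgKrt19 tumors, at 1606, 1960 and 2470 against 17841 to 27618 in the sgScramble tumors (log2 fold change −3.52, adjusted p = 1.74e-05 by limma). Epithelial markers (*Krt8*, *Epcam* and others) were present in every library. Within its group, library sgScramble 3 stood apart in its skeletal muscle RNA, of which all sgKrt19 libraries held more, as described further on. The labels do not say how many mice the tumors came from, so the p-values measure the spread between these samples.

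*Tcf7*, encoding TCF1, was lower in the sgKrt19 tumors. It lies on chr11:52252371-52283014 of the GRCm38 assembly (minus strand, 12 merged exons). Its normalized read counts were 641.8, 581.0, 711.5 and 645.5 in sgScramble tumors 1 to 4, and 237.0, 208.0 and 242.6 in sgKrt19 tumors 5, 6 and 8. The groups stood well apart, at means of 645 ± 53.3 (SD, n = 4) and 229 ± 18.5 (n = 3), a 2.81-fold difference (log2 fold change −1.49, SE 0.129). In bulk RNA, fewer cells that express *Tcf7* and less *Tcf7* RNA per cell cannot be told apart.

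*Lef1*, the relative that shares T cell roles with *Tcf7*, was detected at low levels with no difference that passed the test. It lies on chr3:131110471-131224356, with 13.7% of its exon bases overlapped by an antisense gene. Its values were 16.7, 40.5, 29.2 and 35.2 in the sgScramble tumors and 22.0, 34.0 and 28.4 in the sgKrt19 tumors. The groups overlapped over most of their range (log2 fold change −0.063, SE 0.334, adjusted p = 0.899 by limma), and the wide SE leaves room for changes in either direction.

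*Tcf7l1*, encoding TCF3, which acts mainly as a repressor of Wnt targets and is known from stem cells, fell the most of the 10 members. It lies on chr6:72626378-72789254. Its values were 297, 381, 333 and 426 in the sgScramble tumors and 85.5, 88.0 and 76.7 in the sgKrt19 tumors. Every sgKrt19 tumor was below every sgScramble tumor, and the difference was 4.31-fold (log2 fold change −2.08, SE 0.168, adjusted p = 4.49e-05 by limma).

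*Tcf7l2*, encoding TCF4, the main TCF of intestinal epithelium, did not pass the test. It lies on chr19:55741820-55933654. Its values were 1587, 2330, 1892 and 1936 in the sgScramble tumors and 1821, 1613 and 2039 in the sgKrt19 tumors, which lay within the sgScramble range (log2 fold change −0.08, SE 0.142, adjusted p = 0.687 by limma).

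**Figure D1:**
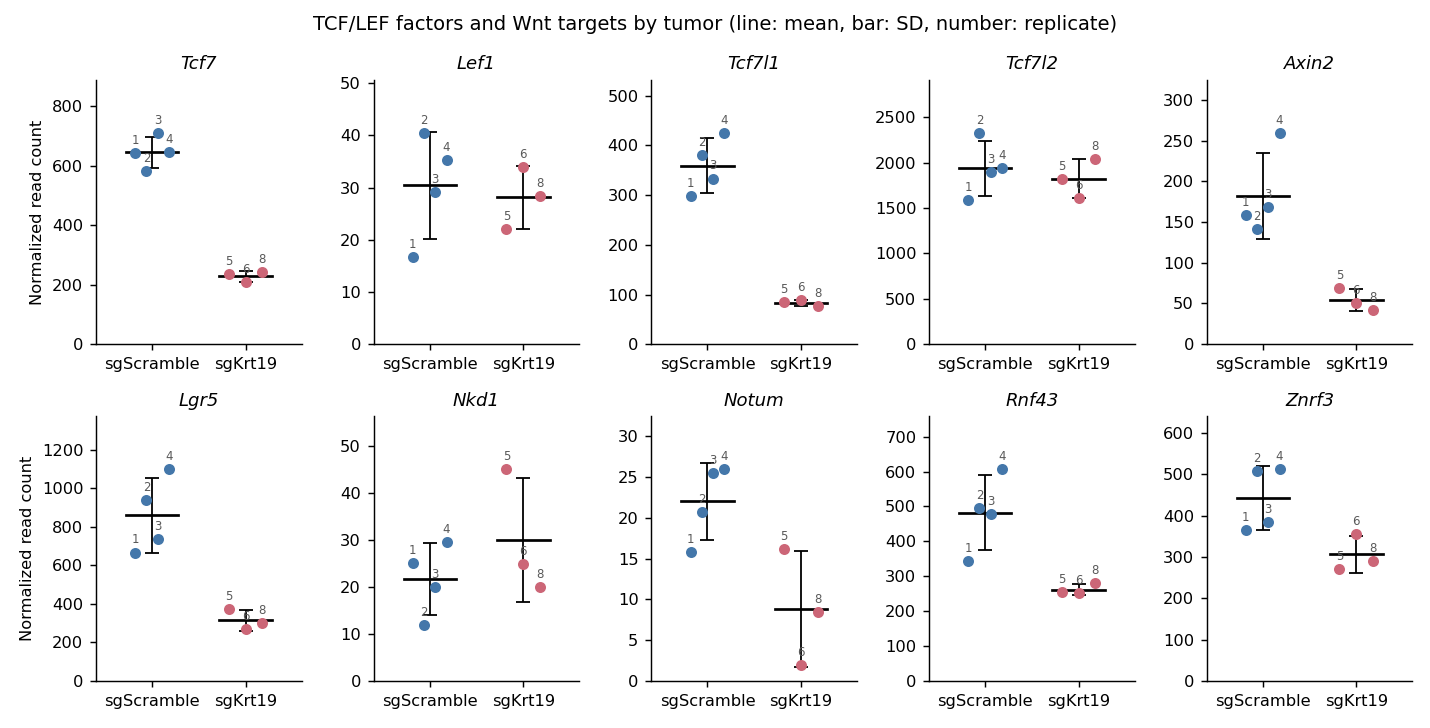
Normalized read count (y axis, from 0, a separate scale in each panel) of the 10 members in each tumor, with sgScramble in blue and sgKrt19 in red, a line at the group mean, a bar of 1 SD and the replicate number above each point. *Tcf7*, *Tcf7l1*, *Axin2*, *Lgr5*, *Rnf43* and *Znrf3* had no sgKrt19 value above the lowest sgScramble value.

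Among the Wnt targets, *Axin2*, the feedback scaffold of the destruction complex and the most used readout of Wnt signaling, fell. It lies on chr11:108920349-108950783. Its values were 159, 141, 168 and 260 in the sgScramble tumors and 69.4, 51.0 and 42.0 in the sgKrt19 tumors. The highest sgKrt19 value lay below the lowest sgScramble value, and the difference was 3.36-fold (log2 fold change −1.72, SE 0.254, adjusted p = 0.000895 by limma).

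*Lgr5*, a receptor for R-spondins that marks intestinal stem cells, fell as well. It lies on chr10:115450311-115587780. Its values were 667, 938, 739 and 1099 in the sgScramble tumors and 372, 270.0 and 299 in the sgKrt19 tumors. The groups did not overlap, and the difference was 2.74-fold (log2 fold change −1.44, SE 0.189, adjusted p = 0.000481 by limma).

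*Rnf43* and *Znrf3* encode membrane ubiquitin ligases that remove Frizzled receptors from the cell surface, and both fell. *Rnf43* (chr11:87662722-87735539) was at 344, 497, 479 and 607 in the sgScramble tumors and at 254, 251 and 280.4 in the sgKrt19 tumors, a 1.84-fold difference (log2 fold change −0.85, SE 0.184, adjusted p = 0.0067 by limma). *Znrf3* (chr11:5276324-5444847) was at 366, 508, 385 and 512 in the sgScramble tumors and at 272, 355 and 291 in the sgKrt19 tumors. The groups did not overlap for *Rnf43*, and for *Znrf3* sgKrt19 tumor 6 came close to sgScramble tumor 1. The 1.45-fold difference of *Znrf3* (log2 fold change −0.52, SE 0.170, adjusted p = 0.0378 by limma) lost its call without sgScramble tumor 2 or 4 or sgKrt19 tumor 5 or 8, with adjusted p of 0.107, 0.0992, 0.122 and 0.0968.

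*Notum* and *Nkd1* were expressed at low levels, and neither gave a firm difference. *Notum* (chr11:120653788-120661175), which encodes a secreted enzyme that inactivates Wnt ligands, was at 15.8, 20.7, 25.6 and 26 in the sgScramble tumors and at 16.2, 2.0 and 8.4 in the sgKrt19 tumors. It fell narrowly past the threshold although the groups overlapped (log2 fold change −1.53, SE 0.530, adjusted p = 0.0482 by limma). The value of sgKrt19 tumor 6 was under 3 reads, and without that tumor the log2 fold change was −0.83 and the adjusted p 0.131. The call was kept in 4 of 15 alternative settings, and 29.4% of the exon bases overlap the antisense gene *Notumos*. *Nkd1* (chr8:88521354-88594884), encoding an inhibitor of Dishevelled, was at 25.1, 11.9, 20.1 and 29.7 against 45.1, 25 and 20, with overlapping groups (log2 fold change 0.44, SE 0.383, adjusted p = 0.392 by limma).

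Over the 9 members other than *Tcf7*, 6 fell, none rose and 3 did not pass the test, with a median log2 fold change of −0.85. Of all tested genes, 34% passed the test, 16% as lower and 17.9% as higher, around a median of 0.0072. Of the 9 members, 5 had every sgKrt19 value below every sgScramble value, as did 19.3% of all tested genes. The list was drawn up with results of these data known, so these counts describe the members and carry no test of their own. They depended on *Notum* and *Znrf3*: between 4 and 6 of the 9 members fell in the 16 alternative settings, and none rose.

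**Figure D2:**
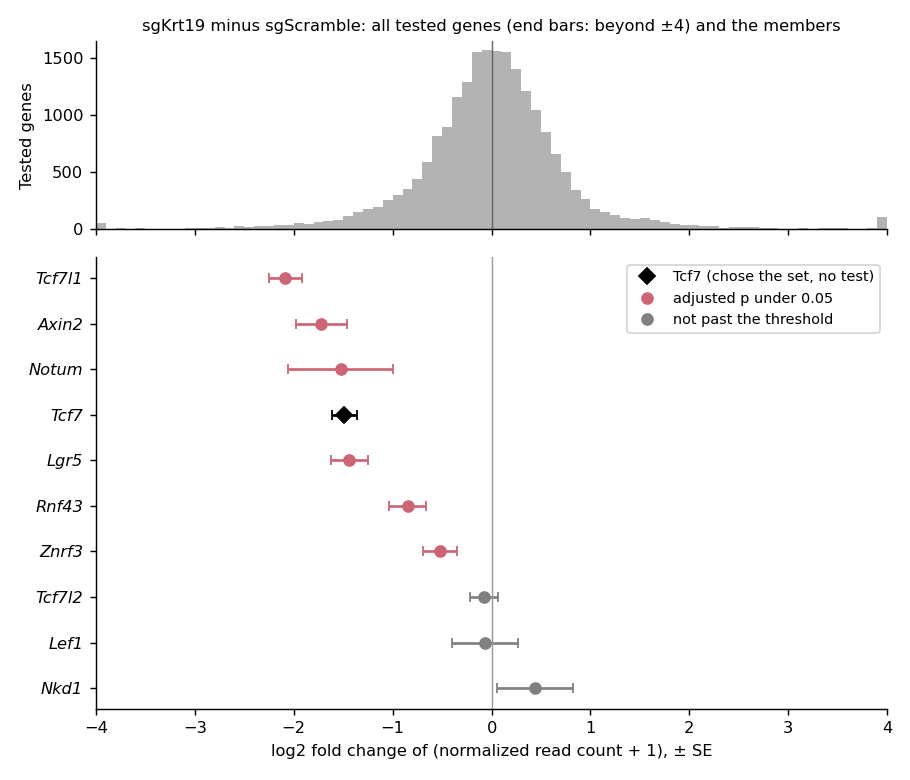
Log2 fold change, sgKrt19 minus sgScramble (x axis), with the number of tested genes at each value above and the 10 members with their SE below. *Tcf7l1* at −2.08, *Axin2* at −1.72, *Notum* at −1.53 and *Lgr5* at −1.44 lie in the left tail. *Tcf7* (diamond) stands at −1.49 without a test, and *Tcf7l2* and *Lef1* lie near 0. *Nkd1* stands at 0.44 with an SE of 0.383 and did not pass the test.

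Levels of different genes were compared as normalized reads per kilobase of exon. In the sgScramble tumors *Tcf7* (246 ± 20.3) and *Tcf7l2* (221 ± 34.7) led, with overlapping ranges. *Tcf7l1* (91.6), *Lgr5* (83.8), *Rnf43* (73.4), *Znrf3* (56.1) and *Axin2* (33.0) followed, each overlapping its neighbor in this order. *Notum* (9.14), *Nkd1* (4.76) and *Lef1* (3.46) were the lowest, and the ranges of *Nkd1* and *Lef1* overlapped. In the sgKrt19 tumors *Tcf7l2* stood alone at the top at 208 ± 24.3, above *Tcf7* at 87.3 ± 7.06. *Tcf7l1*, next after *Tcf7l2* in the sgScramble order, came below *Lgr5* at 21.3 ± 1.52 per kilobase.

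The members also varied within the sgScramble group. Tumor 4 had the highest value of the group for 7 of the 10 members and tumor 1 the lowest for 7. The summed level of 7 fibroblast markers followed the same order at these ends, at 63049 in tumor 1 and 152596 in tumor 4. In the sgKrt19 tumors it was 77119 to 89084. Most of that sum was *Col1a1* and *Col1a2*, which followed this order, as did *Pdgfra* and *Pdgfrb*. However, *Dcn* and *Fap* were lowest in tumor 2, and *Lum* and *Fap* were highest in tumor 3. The part of fibroblast content in the member values was not tested. No fibroblast marker passed the test between the groups.

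Counts of the other Wnt pathway genes, given by list, stand beside the 16% of all tested genes that fell and the 17.9% that rose. *Wnt10b* was at 177, 292, 241 and 256 in the sgScramble tumors and at 38.1, 29.0 and 33.6 in the sgKrt19 tumors, and it fell 7.2-fold (log2 fold change −2.80, adjusted p = 3.49e-05 by limma). *Wnt10a*, its close relative, fell by 2.68 on the log2 scale. *Wnt5a*, a ligand known mainly for signaling without β-catenin, fell by 0.52 on the log2 scale, a call lost in 5 of the 7 fits that left out 1 tumor. *Wnt4* was at 340, 332, 482 and 257 in the sgScramble tumors and at 1006, 1015 and 1630 in the sgKrt19 tumors, and it rose 3.45-fold (log2 fold change 1.78, adjusted p = 0.000434 by limma). *Wnt7b* did not pass the test (log2 fold change −0.19, adjusted p = 0.512 by limma). Of 12 ligands tested, 3 fell, 1 rose and 8 did not pass, a share of calls near the 34% of all tested genes, with a median log2 fold change of −0.38.

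Of 16 genes for ligand secretion and receptors, 9 fell and 2 rose. *Ror1*, a co-receptor for Wnt5a, fell from 488 ± 115 to 127 ± 27.0, *Fzd3* from 52.4 ± 10.9 to 20.9 ± 7.43 and *Fzd2* from 1381 ± 191 to 643 ± 164. *Fzd9* rose from 29.0 ± 10.1 to 78.8 ± 33.2 (adjusted p = 0.0128 by limma, and 0.0521 without sgKrt19 tumor 8). The other receptor that rose, *Fzd5*, went from 2146 ± 323 to 3360 ± 385 and was named after its values were seen.

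R-spondins stabilize Frizzled receptors by drawing RNF43 and ZNRF3 into complexes with LGR receptors. *Rspo3*, one of these ligands, was at 105, 91.9, 72.2 and 100.2 in the sgScramble tumors and at 12.7, 24.0 and 14.7 in the sgKrt19 tumors, and it fell 5.38-fold (log2 fold change −2.40, adjusted p = 0.000215 by limma). An antisense gene overlaps 13.1% of its exon bases. The receptors differed in direction: *Lgr4* rose from 1062 ± 166 to 1607 ± 86.9 (log2 fold change 0.61, adjusted p = 0.00713 by limma), whereas *Lgr5* fell, as given above. *Lgr6* fell by 0.53 on the log2 scale, a call lost without sgScramble tumor 2 or 4 or sgKrt19 tumor 6 or 8. When the libraries were scaled by size alone, *Lgr4* stood at 0.39 and no longer passed the test (adjusted p = 0.0644 by limma).

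Of 7 secreted antagonists and their receptors, 2 fell and 5 did not pass. *Dkk2*, which blocks LRP receptors, was at 826, 992, 748 and 1168 in the sgScramble tumors and at 261, 174 and 101 in the sgKrt19 tumors, a 5.22-fold fall (log2 fold change −2.46, adjusted p = 0.000233 by limma). *Kremen1*, a receptor for Dickkopf proteins, fell by 0.45 on the log2 scale, with an adjusted p of 0.0532 by limma without sgKrt19 tumor 8.

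Inside the cell, *Ctnnb1*, which encodes β-catenin and overlaps the antisense gene *Ulk4* over 14.6% of its exon bases, was abundant and did not pass the test, at 36786 ± 1827 and 35444 ± 2403 (log2 fold change −0.05, adjusted p = 0.765 by limma). RNA levels do not report the stability of the protein, which is what Wnt signaling controls. Of 12 genes of the destruction complex and signal transducers, 7 fell and none rose, with a median log2 fold change of −0.48. They included *Amer1* (−0.87), a partner of APC, *Btrc* (−0.74), the ubiquitin ligase adaptor that recognizes β-catenin, and the Dishevelled genes *Dvl3* (−0.67) and *Dvl2* (−0.55), the last with 18.3% of its exon bases overlapped by *Acadvl* on the other strand. Of 12 nuclear cofactors, 3 fell and none rose. *Bcl9*, which links β-catenin to the transcription machinery, fell from 2330 ± 518 to 887 ± 190 (log2 fold change −1.39), and the corepressor *Tle2* fell by 1.42 on the log2 scale. *Bcl9l* fell by 0.60 on the log2 scale, but its call was lost in 5 of the 7 fits that left out 1 tumor.

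Of 11 other Wnt targets tested, 2 fell, a share near the 16% of all tested genes, and 9 did not pass, with a median log2 fold change of −0.012. *Ephb3*, a receptor of the intestinal crypt, fell from 996 ± 113 to 492 ± 121 (log2 fold change −1.04, adjusted p = 0.00133 by limma). *Apcdd1*, a membrane inhibitor of Wnt signaling, fell from 162 ± 35.1 to 87.0 ± 16.8 (log2 fold change −0.89, adjusted p = 0.0114 by limma). Neither *Myc* (log2 fold change 0.13, adjusted p = 0.495) nor *Ccnd1* (0.24, adjusted p = 0.167), growth genes with many other inputs, passed limma's test. *Nkd2* (−0.012, adjusted p = 0.970) and *Sp5* (−0.53, adjusted p = 0.319) did not pass it either, with *Sp5* at normalized read counts of only 8.0 to 22.3. *Ascl2*, at 0.93 to 6.94, was too low to be tested.

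Over all 73 tested genes of these 7 lists, 28 fell, 4 rose and 41 did not pass, with a median log2 fold change of −0.30. Libraries scaled by size alone shifted the median of all genes to −0.21 and gave 35 lower and 2 higher.

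**Figure D3:**
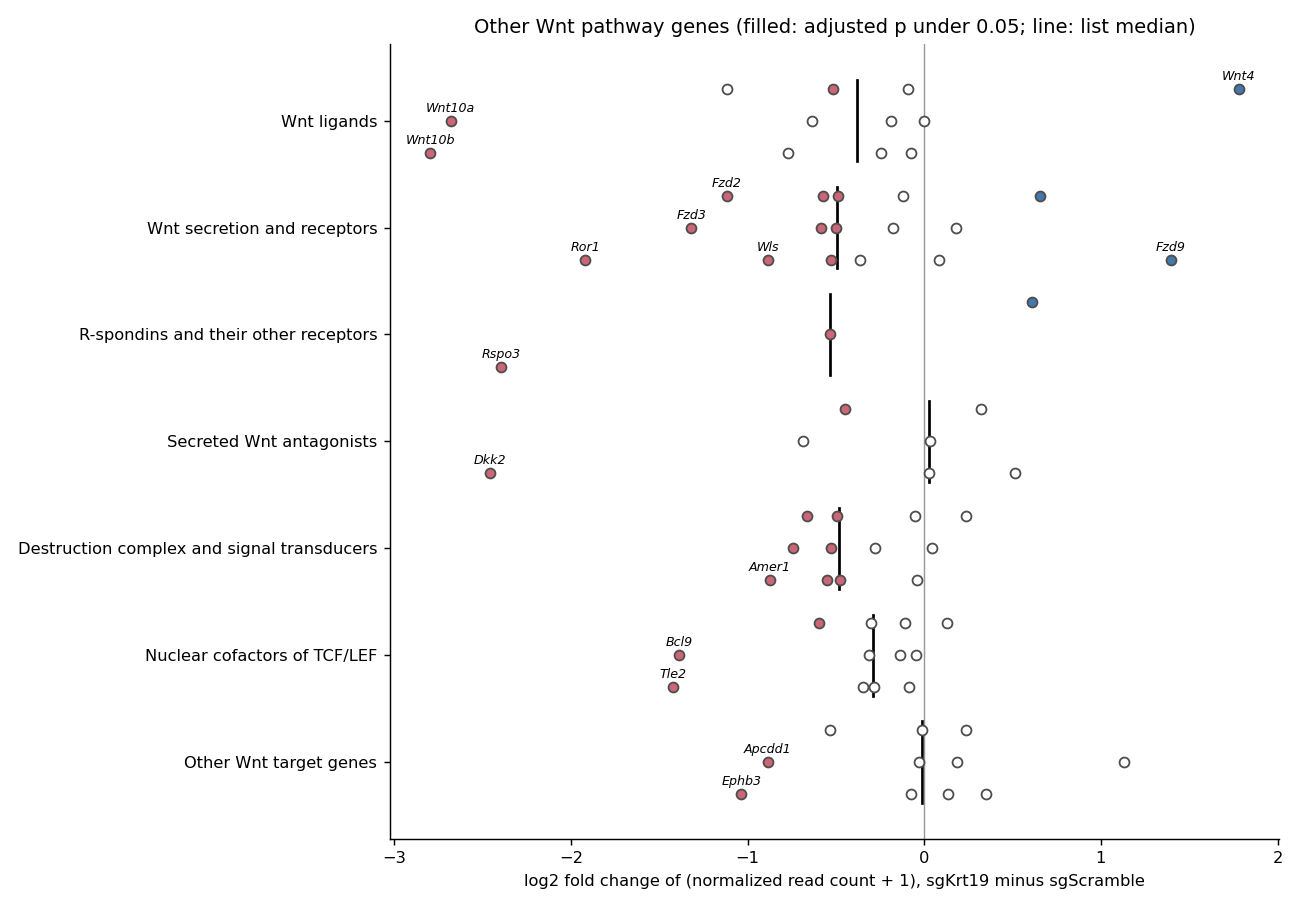
Log2 fold change, sgKrt19 minus sgScramble (x axis), of each tested Wnt pathway gene other than the members, by list, with red or blue points for genes that fell or rose, open points for the rest and a line at the list median. *Wnt10b*, *Wnt10a*, *Dkk2* and *Rspo3* lie beyond −2 on the left, and *Wnt4* and *Fzd9* lie beyond 1 on the right.

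The T cell genes went the other way from *Tcf7*. Their rise was part of how this set was chosen, so their values and counts are given without a test. Of 14 T cell identity genes, 12 had every sgKrt19 value above every sgScramble value, as did 21.7% of all tested genes, and the median log2 fold change was 2.16. *Cd3e*, a subunit of the T cell receptor complex, was at 76.2, 98.8, 36.5 and 49.2 in the sgScramble tumors and at 409, 515 and 261 in the sgKrt19 tumors (log2 fold change 2.63). *Cd8a*, the marker of cytotoxic T cells, was at 242, 286, 77.6 and 107 against 1371, 1820 and 967 (log2 fold change 3.11). *Cd8b1* (3.29), *Cd3d* (2.80) and *Cd3g* (2.74) were higher on the same scale. The groups overlapped for *Cd4* (0.56) and *Cd247* (−0.10), named after their values were seen, and 56.4% of the exon bases of *Cd247* overlap the antisense gene *Pou2f1*.

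Among 10 genes that accompany *Tcf7* in naive and memory T cells, 3 had every sgKrt19 value above every sgScramble value. Of all tested genes, 21.7% did so. The groups overlapped for the other 7, and the median log2 fold change of the 10 genes was 0.50. *Satb1*, a chromatin organizer of T cells, and *S1pr1*, a receptor for tissue exit that endothelium also expresses, were higher by 1.21 and 1.12 on the log2 scale. The groups overlapped for *Ccr7* (0.21), *Il7r* (0.48) and *Slamf6* (0.55), the chemokine receptor of lymph node entry, the interleukin-7 receptor and a marker of stem-like T cells.

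Of 8 transcription factors of effector T cells, 4 lay wholly above and 2 wholly below the sgScramble values. Of all tested genes, 21.7% lay wholly above and 19.3% wholly below. *Tbx21*, encoding T-bet, was higher by 1.81 on the log2 scale, *Batf* by 1.38 and *Eomes* by 0.88. *Tox*, a factor of exhausted T cells, was at 125, 118, 208 and 143 in the sgScramble tumors and at 50.9, 64.0 and 70.4 in the sgKrt19 tumors (log2 fold change −1.23), opposite in sign to the identity genes. *Zeb2*, named after its values were seen and also expressed by myeloid cells and fibroblasts, differed by −0.84 on the log2 scale.

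The level of *Tcf7* relative to T cell genes differed between the groups. As normalized reads per kilobase of exon, *Tcf7* was at 221 to 271 in the sgScramble tumors, above all 14 T cell identity genes in the same tumors. *Trac*, the constant segment of the T cell receptor α chain and the highest of the 14, was at 115 to 193 there, and *Cd8a* and *Cd3e* were at 21.3 to 78.5 and 8.95 to 24.2. In the sgKrt19 tumors *Tcf7* was at 79.3 to 92.4 per kilobase, below *Trac* at 517 to 974 and *Cd8a* at 266 to 500.5 and within the range of *Cd3e*, 64.1 to 126. These levels per kilobase are a description, and *Trac* and *Cd3e* were chosen for it after their values were seen. Which cells held the *Tcf7* RNA was not tested.

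**Figure D4:**
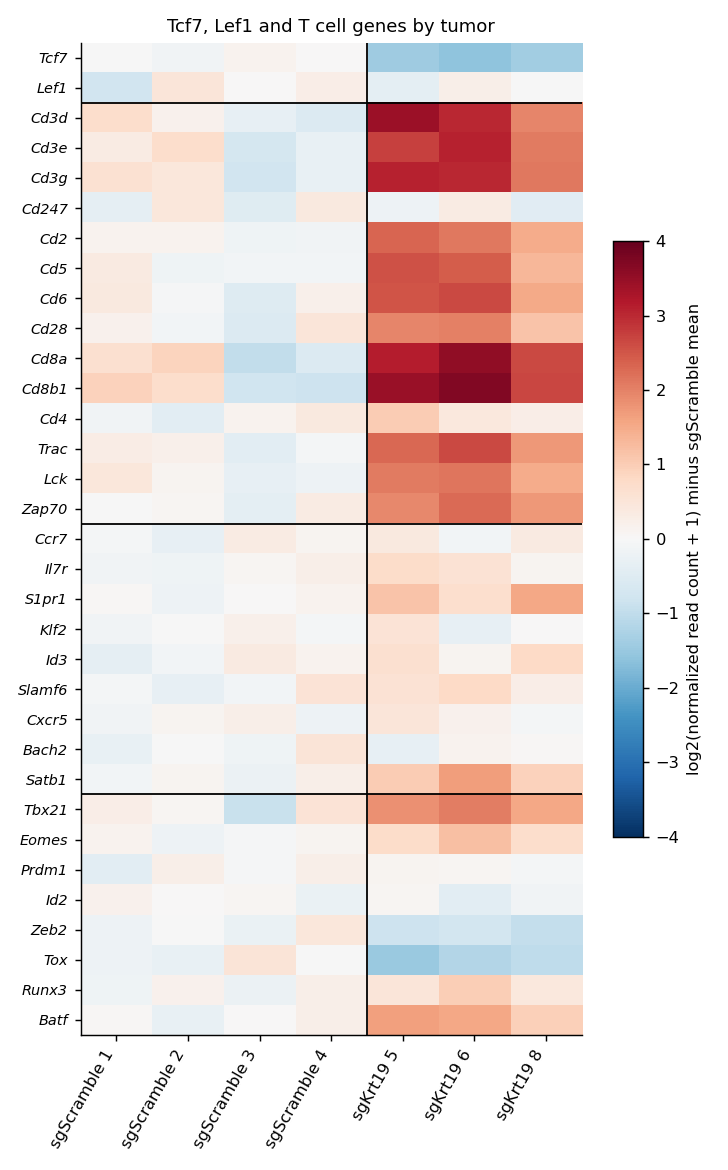
Log2(normalized read count + 1) minus the sgScramble mean of the gene (color, red higher and blue lower), for *Tcf7*, *Lef1* and genes of the 3 T cell lists (rows) in the 7 tumors (columns). *Tcf7* is blue in all 3 sgKrt19 tumors, while *Cd3e*, *Cd8a* and most other identity genes in the block below are red there.

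Marker levels of other cell types are given beside these results. Counts of called markers stand beside the 17.9% of all tested genes that rose and the 16% that fell. The summed T cell identity genes were 4.46-fold higher in the sgKrt19 tumors, at 4246 to 7781 against 972 to 1714. The summed level of 7 epithelial markers was 1.81-fold higher, at 269289 to 280112 against 128877 to 173273. *Krt8* and *Krt18*, keratin genes like *Krt19*, made up most of that sum. Of the 7 markers, 5 were higher and 2 not called, *Epcam* at 0.06 and *Cldn4* at −1.23 on the log2 scale. The sum of 7 skeletal muscle markers was 17368 to 24531 in the sgKrt19 tumors, against 27.9 to 43.6 in sgScramble tumors 1, 2 and 4 and 1965 in sgScramble tumor 3, a tumor with muscle RNA. By their sums, 4 NK cell markers were 1.70-fold higher, at 958 to 1243 against 463 to 726. *Klra4* made up most of that sum, at means of 526 in the sgScramble and 831 in the sgKrt19 tumors. Of these NK cell markers, 2 were higher and 2 not called. The sum of 5 endothelial markers was 1.43-fold higher, at 4269 to 4779 against 2592 to 3704, with 3 markers higher and 2 not called. The sums of 5 macrophage markers overlapped between the groups, at 12764 to 15475 against 10974 to 15458. Of these 5 markers, 1 was higher, 1 lower and 3 not called, shares near those of all tested genes. B cell markers lay at 6.94 to 13.0 against 14.9 to 36.6. The sum of 8 skin and hair follicle markers was 393 in sgKrt19 tumor 8 and 188 to 295 in the other tumors. The hair follicle keratin genes *Krt25* and *Krt71* were at 78.8 and 90.3 in that tumor and at most 4.62 in the others. The epidermal keratin gene *Krt14* was instead lowest in that tumor, at 18.9. The part of cell type content in the member differences was not tested. Without sgScramble tumor 3 the log2 fold changes were −1.44 for *Tcf7* and −2.12 for *Tcf7l1*, and 5 of the 9 other members fell. Muscle RNA still followed the groups in that fit, which therefore cannot separate muscle content from the groups.

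*Tcf7*, *Axin2*, *Notum*, *Rnf43* and *Znrf3*, 5 of the 10 members, lie on chromosome 11 together with *Krt19*. The 1565 tested genes of that chromosome had a median log2 fold change of −0.20. Of them, 30% fell, against 16% of all tested genes. This was not particular to chromosome 11: chromosome 3, which holds *Lef1*, had a median of −0.21 with 28.8% lower. Chromosomes 6 and 19 were at −0.03 and −0.08, with 18.7% and 19.5% lower. Chromosomes 10 and 8 were at 0.11 and 0.14, with 8.69% and 9.43% lower. Tested genes within 1 Mb had medians of −0.23 around *Tcf7* (27 genes), −0.29 around *Axin2* (15), −0.21 around *Rnf43* (39), −0.18 around *Znrf3* (40) and −0.11 around *Notum* (75). Around *Tcf7l1* on chromosome 6 and *Lgr5* on chromosome 10 the medians were −0.04 (36 genes) and 0.005 (13 genes). The part of a chromosome-wide shift in the member values was not tested.

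The genes whose pattern over the 7 tumors was most like that of *Tcf7* were ranked by the root mean square difference of centered log2 values among 12229 genes that averaged 100 or more. They were *H1fx* (0.0926), *Mycn* (0.114), *Nbl1* (0.121), *Msrb2* (0.132) and *R74862* (0.134). *Mycn*, a MYC family transcription factor, was abundant, at a mean of 2483 in the sgScramble tumors and 832 in the sgKrt19 tumors. For *Axin2* they were *Il17rd* (0.165), an inhibitor of FGF signaling, *St8sia3* (0.176), *Serpinb9b* (0.189), *Hs6st2* (0.192) and *Zfp354c* (0.207). Both rankings mainly recover the difference between the groups, and *Lgr5* was the member nearest to each of them, at 0.275 from *Tcf7* and 0.281 from *Axin2*.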

How the data were processed

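Polyadenylated RNA of 7 tumors was sequenced, per the labels. The study's methods name a stranded total RNA kit and single reads, and whether poly(A) selection was used is not settled here. The deposited table holds a signal, reads per gene that the authors divided by a size factor of each library. The submitters' processing notes name the build mm10, and the aligner, counter and strand setting are not given in the sources used here. Whole reads were recovered for 100% of values (tolerance 0.05). A floor of 3 reads was worth 2.74 to 3.47 and covers counting error only. Replicates of a group differed by a chi-square of 17.2 to 74.2 per degree of freedom, so none was a repeated library.

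Groups came from the sample labels. Genes that reached a value of 10 in 3 or more libraries entered the test, made with limma 3.58.1 (R 4.3.3) on log2(value + 1) with a trended prior, adjusted by Benjamini-Hochberg over all tested genes at 0.05. The pseudocount of 1 understates changes of low genes. The script was tested on simulated data. Positions, exons and overlaps came from GENCODE M21 (GRCm38), which held 97.55% of the gene identifiers. Of each list, up to 4 called genes with the largest change were named, plus genes fixed by name and the 5 genes most like *Tcf7* and *Axin2* (clone names left out). The members and all 19 lists were chosen with earlier results of these data known. A gene of the naive and memory T cell list is counted there and not reported here. The 16 alternatives were pseudocounts of 0.5 and 10, 2 other filters, library size only, TMM, edgeR 4.0.16 and DESeq2 1.42.0 on recovered reads, no trend, and each library left out.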

Additional observations from a re-analysis of the deposited data

How the results depend on the processing

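No paired analysis was possible because the groups share no replicate number. *Tcf7l1*, *Axin2*, *Lgr5* and *Rnf43* fell in all 16 alternatives, with log2 fold changes of −2.30 to −1.97, −1.93 to −1.54, −1.65 to −1.31 and −1.06 to −0.73. *Notum* lost its call in 11 of 15 alternatives (adjusted p 0.0584 by edgeR and 0.0503 by DESeq2) and *Znrf3* in 5 of 16. Scaling by library size alone moved the calls over all genes from 3820 higher and 3420 lower to 2187 and 5705, the share of calls that were higher from 52.8% to 27.7%, the Wnt genes that rose from 4 to 2 and *Tcf7* from −1.49 to −1.70. Leaving out 1 tumor gave 2481 to 4103 genes higher, lowest without sgKrt19 tumor 5, and 2232 to 3611 lower, lowest without sgScramble tumor 2. It gave −1.54 to −1.42 for *Tcf7*, 4 to 5 of the 9 other members lower and 21 to 30 Wnt genes lower. Uncalled values changed sign in some alternatives: *Ccr7* stood at −0.004 and *Myc* at −0.0837 by library size, and leaving out 1 tumor gave −0.3155 to 0.0975 for *Lef1*, −0.1703 to 0.0141 for *Tcf7l2*, −0.0963 to 0.0002 for *Ctnnb1*, −0.0319 to 0.2974 for *Myc* and −0.1326 to 0.1011 for *Nkd2*. The cause was not tested. Low levels limit *Lef1*, *Nkd1*, *Notum* and *Sp5*.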
